A study of Mus musculus with 12 samples.

Results

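Oxidative phosphorylation is carried out by 5 protein complexes of the inner mitochondrial membrane, and the nuclear genes of their subunits were read across 12 arrays of mouse small intestine. A subunit gene was taken where the platform annotation gave a probe set exactly 1 gene whose symbol began with Ndufa, Ndufb, Ndufc, Ndufs or Ndufv and a digit, or was Ndufab1 or Sdha to Sdhd, or began with Uqcr, Cox4 to Cox8 or Atp5. Assembly factors named Ndufaf and pseudogenes were left out. This gave 77 probe sets, 1 per gene, of 23991 on the array: 33 of complex I, 4 of complex II, 6 of complex III, 17 of complex IV and 17 of complex V. A further 6 probe sets named a matching gene together with another gene and were not used, among them those of Ndufs6, Ndufb2, Uqcrb, Uqcr10 and Cox6c.

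Complexes I and II pass electrons from NADH and succinate to ubiquinone, complex III passes them on to cytochrome c, and complex IV hands them to oxygen. Complexes I, III and IV pump protons as they do so, and complex V, the ATP synthase, uses the returning protons to make ATP. Most subunits are encoded in the nucleus, a few core subunits of all complexes but complex II in mitochondrial DNA, and the intestinal epithelium relies on this pathway for absorption and for the maturation of its cells.

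All mice were wild-type BALB/c recipients that had undergone total body irradiation and had received bone marrow and T cells of C57BL/6N donors, a transplantation that can give rise to graft-versus-host disease. Small intestine was taken on day 14. The 6 TUDCA samples come from mice that had received 200 mg/kg of tauroursodeoxycholic acid, a bile acid conjugate, once a day by the intraperitoneal route, and the 6 vehicle samples from mice given 200 µl of vehicle in the same way. Both groups were thus irradiated and transplanted, and no mouse without transplantation was analysed here. The labels give no age or sex. Values are log2 intensities, 1 per probe set and array, so that a difference of 1 is a doubling. The labels also number the samples. Numbers under 100, called the low range here, belong to 2 TUDCA and 4 vehicle arrays, and numbers over 100, the high range, to 4 TUDCA and 2 vehicle arrays. What the ranges stand for is not stated. The differences below are TUDCA minus vehicle, estimated within these ranges by limma, and a gene was called where the p-value adjusted over all probe sets was under 0.05.

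Markers of the tissue were read. The epithelial genes Sis and Vil1 had means of 12.34 and 12.12 in the TUDCA group. The probe set of Fabp1, another gene of absorptive cells, was dim, with a mean of 5.15. A label field names CXCL12-abundant reticular cells. Of 14 marker genes of reticular and other stromal cells none was called, and the log2 of their summed level lay between 12.05 and 12.77 under TUDCA and between 12.21 and 12.53 under vehicle. Cxcl12 had a TUDCA mean of 7.70, Lepr one of 6.44, Foxc1 one of 4.61 and Ebf3 one of 5.86. Values of different probe sets, also where called bright or dim, do not give the relative amounts of their transcripts. A difference between the groups does not tell the source of the samples either, so that label field was not tested. In whole tissue, fewer cells of a type and less RNA per cell cannot be told apart. TUDCA replicate 3 stood apart for the subunit genes: it had the lowest value of the TUDCA group in 49 of 77 genes (63.6%), against 18.6% of all probe sets. TUDCA replicate 2 had the highest value of the group in 31.2% of the genes, against 17.7% of all probe sets. Results are also given without TUDCA replicate 3. That array was picked out by the values of these same genes, so leaving it out tends to raise their differences. A gene that passed only without it is therefore no further evidence of a rise.

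Of the 77 subunit genes 4 rose in the TUDCA group: Cox7a1 of complex IV and Ndufv1, Ndufa9 and Ndufc2 of complex I. For comparison, 1.00% of all probe sets were called higher. None fell, against 1.52% of all probe sets. At an unadjusted p under 0.05, limma gave 21 subunit genes higher and 1 lower, with 7.24% and 6.84% of all probe sets beyond that level. The median difference of the subunit genes was 0.13, an increase of 9.29%, beside a median of 0.01 for all probe sets. The difference was above 0 for 71 of 77 genes, and for 53.3% of all probe sets. The smallest difference was −0.29 and the largest 0.50.

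**Figure D1:**
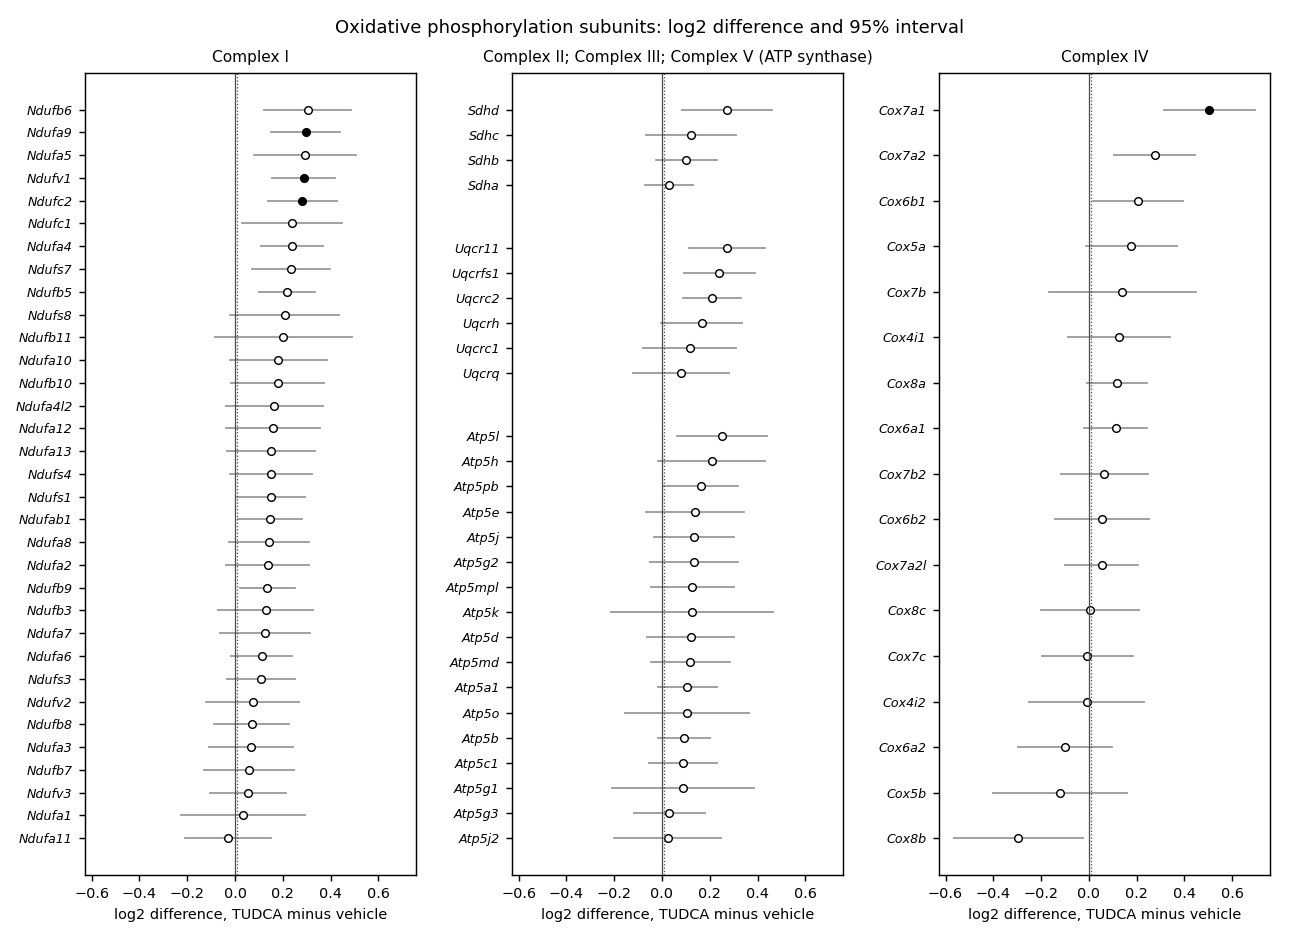
Log2 difference between TUDCA and vehicle (horizontal axis) with its 95% interval for each of the 77 subunit genes, by complex. Filled points mark the 4 genes called by limma and the dotted line the median of all probe sets, and most points lie to the right of 0, with Cox7a1 the farthest at 0.50 and Cox8b the lowest at −0.29.

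How many subunit genes passed depended on single arrays. Without TUDCA replicate 3 there were 12, without TUDCA replicate 1 or 2 or vehicle replicate 6 there was 1, and without TUDCA replicate 4 or 5 or vehicle replicate 2 or 3 there were 2. Only Cox7a1 passed whichever array was left out. The median difference moved less, from 0.11 without TUDCA replicate 2 to 0.16 without TUDCA replicate 3. Within the low number range the median was 0.19 and within the high range 0.08. The difference was larger in the low range for 58 of the 77 genes, and the difference between ranges was not tested. TUDCA replicate 3 is 1 of the 4 TUDCA arrays of the high range. The values for that range include it and are not given without it. A difference above 0 in both ranges was found for 54 genes, or 70.1%, and for 30.1% of all probe sets.

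The gene with the largest change was Cox7a1 (probe set 17476288). It encodes the isoform of cytochrome c oxidase subunit 7a that is best known from heart, skeletal muscle and brown fat, where it takes the place of the ubiquitous isoform encoded by Cox7a2. Its log2 values ran from 9.22 through a median of 9.49 to 9.76 in the TUDCA group and from 8.89 through 9.03 to 9.15 in the vehicle group. Every TUDCA array thus lay above every vehicle array. This was so for 3 of the 77 subunit genes, the others being Ndufb5 and Uqcrc2, and for 0.800% of all probe sets. None had every TUDCA array below every vehicle array, against 1.18% of all probe sets. The difference was 0.50 ± 0.09 (SE), a 1.42-fold higher level, with adjusted p = 0.00715 in limma. It was 0.62 in the low range and 0.39 in the high range, and the adjusted p stayed at or below 0.0412 with any 1 array left out. Within the high range alone, which holds 2 vehicle arrays, the adjusted p was 0.334.

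Markers of striated muscle and brown fat were read beside Cox7a1. Of 12 such genes 1 was called: Acta1, skeletal muscle actin, rose by 0.87 (adjusted p = 0.00743 in limma). The creatine kinase Ckm was at −0.19 and the brown fat uncoupler Ucp1 at −0.03, neither called, and the log2 of the summed level of the list lay between 9.29 and 9.76 under TUDCA and between 9.10 and 9.63 under vehicle. None of 8 smooth muscle genes was called and all 8 had differences below 0, whereas 53.3% of all probe sets had one above 0. The summed level of these 8 genes lay between 13.67 and 14.12 under TUDCA and between 13.46 and 14.24 under vehicle. The part of these cells in the result for Cox7a1 was not tested.

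Of the other isoforms with a restricted pattern, none was called. The muscle isoform gene Cox8b had the lowest difference of all subunit genes, with a median of 4.57 under TUDCA and 4.90 under vehicle and a difference of −0.29 ± 0.13 (SE, adjusted p = 0.301). Cox6a2, also a muscle isoform, differed by −0.10, and Cox4i2, an isoform known from lung and from low oxygen, by −0.01. The testis isoforms Cox6b2, Cox7b2 and Cox8c differed by 0.06, 0.06 and 0.01, and Ndufa4l2, a paralogue of Ndufa4 known to be induced by hypoxia, by 0.16. Apart from Cox7a1 these probe sets were dim, with means from 2.95 (Cox7b2) to 5.76 (Cox6b2), below the median probe set at 5.93, and whether their transcripts were above background was not tested.

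The ubiquitous partners of these isoforms did not pass. Cox7a2 ran from 9.37 to 9.85 under TUDCA and from 9.34 to 9.51 under vehicle, with a difference of 0.28 ± 0.08 (SE, adjusted p = 0.0941). TUDCA replicate 3 gave the lowest TUDCA value of Cox7a2, the only one below the highest vehicle array. Cox7a2 passed without that array and missed the threshold without any 1 of the other 11. Cox4i1 differed by 0.13, Cox6a1 by 0.11, Cox6b1 by 0.21, Cox7b by 0.14 and Cox8a by 0.12. Cox7a2l, which encodes a protein that joins complexes III and IV into supercomplexes, differed by 0.05, with a 95% interval from −0.10 to 0.21. The 95% interval of Cox6b1 began at 0.02, and those of Cox4i1, Cox6a1, Cox7b and Cox8a included 0. Among all 17 complex IV genes the median difference was 0.06 and 12 were above 0. Those below 0 were Cox8b, Cox6a2, Cox5b, Cox4i2 and Cox7c. Their probe sets were dim, with means from 4.72 to 5.47, below the median probe set at 5.93. Every complex IV gene at or above that median had a difference above 0.

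**Figure D2:**
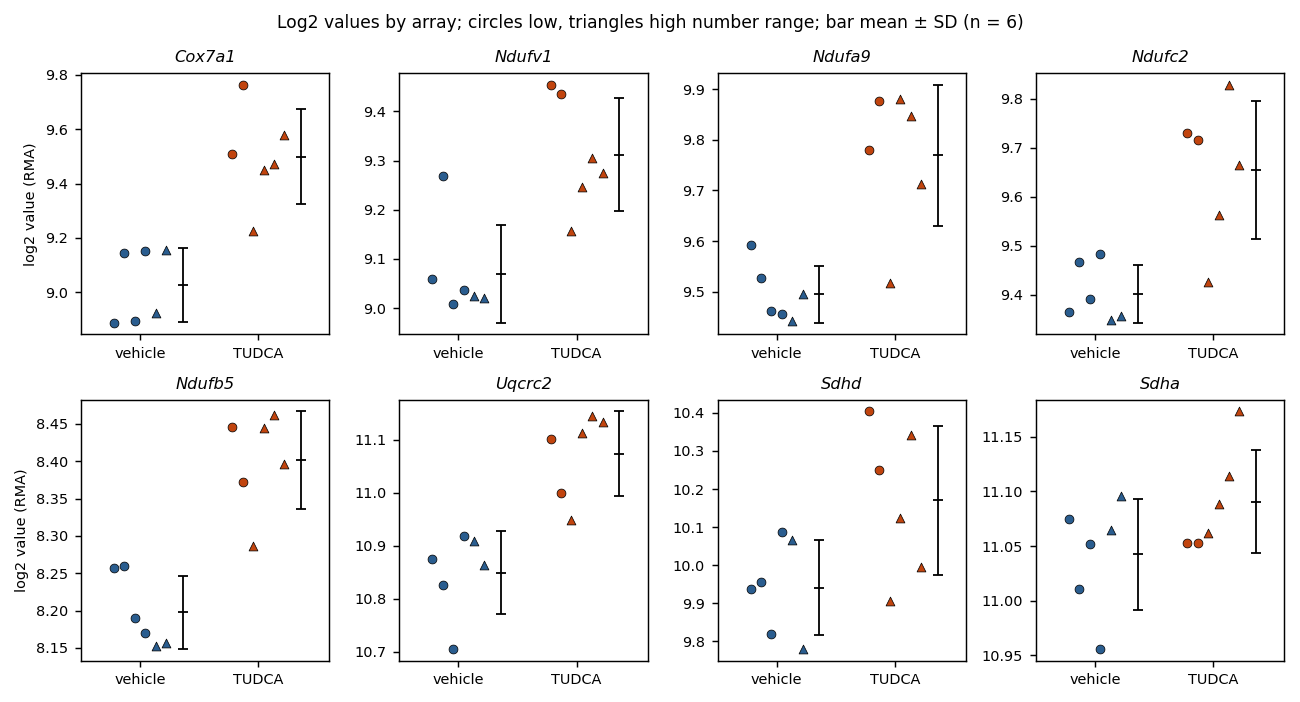
Log2 values (vertical axes, RMA scale, not starting at 0) of 8 subunit genes on the 6 vehicle and 6 TUDCA arrays. Circles are arrays of the low and triangles of the high number range, and bars give mean ± SD; the groups are separate for Cox7a1, Ndufb5 and Uqcrc2, overlap by few arrays for Ndufv1, Ndufa9 and Ndufc2, and overlap broadly for Sdha.

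In complex I, 3 of 33 genes rose and none fell, and 32 had a difference above 0, with a median of 0.15. Ndufv1 (probe set 17361056) encodes the flavoprotein at which NADH gives up its electrons. It ran from 9.16 through 9.29 to 9.45 under TUDCA and from 9.01 through 9.03 to 9.27 under vehicle. All TUDCA arrays but TUDCA replicates 3 and 4 lay above vehicle replicate 2, the highest of its group, and the difference was 0.29 ± 0.06 (SE, adjusted p = 0.0223). Ndufa9 (probe set 17471166) encodes an accessory subunit near the site where ubiquinone binds. It ran from 9.52 through 9.81 to 9.88 and from 9.44 through 9.48 to 9.59, and only TUDCA replicate 3 lay within the vehicle values. The difference was 0.30 ± 0.07 (SE, adjusted p = 0.0321). Ndufc2 (probe set 17480343), an accessory subunit of the membrane arm, ran from 9.43 through 9.69 to 9.83 and from 9.35 through 9.38 to 9.48, again with TUDCA replicate 3 alone inside the vehicle range. Its difference was 0.28 ± 0.07 (SE, adjusted p = 0.0382).

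These 3 calls were close to the threshold. The call of Ndufv1 ended without TUDCA replicate 1 or 2 or vehicle replicate 6, with adjusted p up to 0.1, and with the number range left out of the fit (adjusted p = 0.0792). That of Ndufa9 held without TUDCA replicate 3 or 6 or vehicle replicate 1 and ended without any of the other 9 arrays (adjusted p up to 0.125). That of Ndufc2 held without TUDCA replicate 3 or vehicle replicate 4 and ended without any of the other 10 (adjusted p up to 0.128). Ndufc2 also missed the threshold without the number range (adjusted p = 0.0659), and Ndufa9 and Ndufc2 without a variance trend (adjusted p = 0.0622 and 0.0713). Within 1 number range alone none of the 3 passed in limma, with adjusted p from 0.0875 to 0.107 in the low and from 0.454 to 0.49 in the high range. In each number range all 3 differences were above 0, at 0.35, 0.32 and 0.30 in the low range and 0.22, 0.27 and 0.27 in the high range for Ndufv1, Ndufa9 and Ndufc2.

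Just past the threshold lay Ndufb5, a membrane arm subunit, with 8.29 to 8.46 under TUDCA and 8.15 to 8.26 under vehicle (difference 0.22 ± 0.06 SE, adjusted p = 0.0537), and Ndufa4 (0.24 ± 0.06 SE, adjusted p = 0.0554), whose product is now counted as a subunit of complex IV. Of the 7 catalytic core subunits of complex I encoded in the nucleus, 6 were measured. Besides Ndufv1 they were Ndufs1, Ndufs3, Ndufs7, Ndufs8 and Ndufv2, which had differences from 0.07 to 0.23 and were not called. The core subunits had a median of 0.18 and the 27 other complex I genes one of 0.15.

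Complex II, whose 4 subunits are all nuclear and which is also the succinate dehydrogenase of the citric acid cycle, had no gene past the threshold. Sdhd, 1 of its 2 membrane anchors, ran from 9.91 through 10.19 to 10.40 under TUDCA and from 9.78 through 9.95 to 10.09 under vehicle (difference 0.27 ± 0.09 SE, adjusted p = 0.144). TUDCA replicates 3 and 6 of Sdhd lay within the vehicle values. Sdha, the flavoprotein that oxidises succinate, had the smallest standard error of all subunit genes, 0.05, and a difference of 0.03 with a 95% interval from −0.07 to 0.13. Sdhb and Sdhc differed by 0.10 and 0.12, with intervals that include 0.

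In complex III none of 6 genes was called, but all 6 differences were above 0 and the median, 0.19, was the highest of the 5 complexes. Uqcrc2, a core protein, ran from 10.95 to 11.14 under TUDCA and from 10.71 to 10.92 under vehicle. Its groups did not overlap, and the difference was 0.21 ± 0.06 (SE, adjusted p = 0.0757). Uqcr11, a small subunit, differed by 0.27 ± 0.07 (SE, adjusted p = 0.0705) and Uqcrfs1, the Rieske iron-sulfur protein, by 0.24 ± 0.07 (SE, adjusted p = 0.0974). Uqcrh, the hinge protein that binds cytochrome c1, differed by 0.17 (adjusted p = 0.374). Uqcrc2, Uqcr11 and Uqcrfs1 passed without TUDCA replicate 3 and missed the threshold without any 1 of the other 11 arrays.

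In complex V none of 17 genes was called and all differences lay between 0.02 and 0.25, with a median of 0.12. Atp5a1 and Atp5b, the alpha and beta subunits that form the catalytic head, differed by 0.11 and 0.09, with intervals from −0.02 to 0.23 and from −0.02 to 0.20. The largest difference was that of Atp5l, subunit g of the membrane part, at 0.25 ± 0.09 (SE, adjusted p = 0.183), followed by Atp5h, subunit d of the stator, at 0.21 ± 0.11 (SE, adjusted p = 0.4). Atp5pb, subunit b of the stator, differed by 0.16 ± 0.07 (SE, adjusted p = 0.337). It passed without TUDCA replicate 3 and missed the threshold without any 1 of the other 11 arrays. The median for complex V was 0.22 in the low and 0.03 in the high number range, and for complex II 0.21 and 0.04. Complex III stood at 0.24 and 0.18, complex I at 0.20 and 0.10 and complex IV, in the other order of size, at 0.06 and 0.08. The high range includes TUDCA replicate 3, and its part in these contrasts was not tested.

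**Figure D3:**
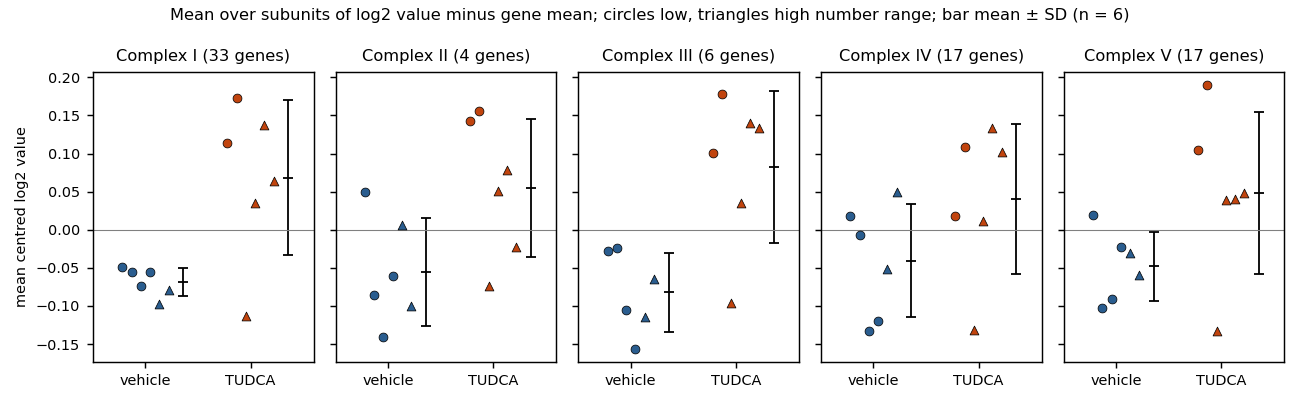
Log2 values centred on each gene's mean over the 12 arrays and averaged over the genes of a complex (vertical axis), for each vehicle and TUDCA array, with mean ± SD as bars. Circles are arrays of the low and triangles of the high number range; TUDCA replicate 3 is the lowest TUDCA array in all 5 panels, at −0.11 for complex I, where the other 5 TUDCA arrays lie above all vehicle arrays.

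How far the subunit genes varied together within the groups depended on TUDCA replicate 3. After removal of the group and range means, the mean correlation over the 2926 pairs of subunit genes was 0.24 across the 12 arrays, and 74.5% of the pairs had a positive one. Without TUDCA replicate 3 the mean correlation was 0.08 and 58.3% of the pairs had a positive one, whereas it lay between 0.23 and 0.27 with any other array left out. The mean over all pairs of probe sets was 0.00, with or without that array. These correlations share the arrays and their normalisation and are given as a description. The mean of the centred log2 values of the 77 genes ran from −0.12 in TUDCA replicate 3 through 0.03 in replicate 4 to 0.16 in replicate 2, and in the vehicle group from −0.10 in replicate 3 to −0.01 in replicate 1. TUDCA replicate 3 was thus below all vehicle arrays and the other 5 TUDCA arrays above them.

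The brighter and dimmer probe sets were also read apart. Of the 77 probe sets 65 had a mean at or above the median of all probe sets, and these had a median difference of 0.14, all above 0. The 12 dimmer ones had a median of 0.00, with 6 above 0. Of all probe sets, 51.9% of the brighter and 54.7% of the dimmer part had a difference above 0. Cox5b and Cox7c, ubiquitous subunits of complex IV, were among the dim ones, with means of 4.81 and 5.33, and so were Ndufa11, Ndufb11 and Atp5j2. Their differences were −0.12 (Cox5b) and −0.01 (Cox7c).

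The windows from 250 bases before to 50 bases after the gene start, from RefSeq (GRCm38.p6), are shown for the 4 genes that rose and for a pair of their neighbours in size of change that carry several of the motifs searched, Sdhd and Uqcr11. They lie at chr7:30183921-30184220 on the plus strand for Cox7a1, at chr19:4012706-4013005 on the minus strand for Ndufv1, at chr6:126849095-126849394 on the minus strand for Ndufa9, at chr7:97399753-97400052 on the plus strand for Ndufc2, at chr9:50603800-50604099 on the minus strand for Sdhd and at chr10:80406772-80407071 on the minus strand for Uqcr11. Each is written 5′ to 3′ along the gene, and capitals mark the motifs found.
Cox7a1 promoter: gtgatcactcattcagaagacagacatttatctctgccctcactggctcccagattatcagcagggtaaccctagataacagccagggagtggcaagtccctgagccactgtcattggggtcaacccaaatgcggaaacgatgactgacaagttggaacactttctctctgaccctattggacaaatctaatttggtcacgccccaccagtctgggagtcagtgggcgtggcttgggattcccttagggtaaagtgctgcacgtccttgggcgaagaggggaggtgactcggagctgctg
Ndufv1 promoter: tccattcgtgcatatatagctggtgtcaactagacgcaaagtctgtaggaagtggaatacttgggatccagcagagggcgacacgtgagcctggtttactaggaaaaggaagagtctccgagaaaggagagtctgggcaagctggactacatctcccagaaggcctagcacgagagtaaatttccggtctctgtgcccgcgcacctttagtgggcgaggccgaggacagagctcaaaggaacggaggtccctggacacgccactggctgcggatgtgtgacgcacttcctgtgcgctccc
Ndufa9 promoter: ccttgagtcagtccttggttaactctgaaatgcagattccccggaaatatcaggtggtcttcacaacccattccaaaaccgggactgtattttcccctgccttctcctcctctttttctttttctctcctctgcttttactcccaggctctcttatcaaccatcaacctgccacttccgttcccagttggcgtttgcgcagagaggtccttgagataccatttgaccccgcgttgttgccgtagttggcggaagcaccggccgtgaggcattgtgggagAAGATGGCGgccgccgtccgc
Ndufc2 promoter: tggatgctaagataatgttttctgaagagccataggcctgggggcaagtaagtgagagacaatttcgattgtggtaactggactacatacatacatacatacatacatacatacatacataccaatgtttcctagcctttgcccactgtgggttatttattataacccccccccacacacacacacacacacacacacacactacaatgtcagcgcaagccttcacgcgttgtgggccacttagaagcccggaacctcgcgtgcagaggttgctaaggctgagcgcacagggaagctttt
Sdhd promoter: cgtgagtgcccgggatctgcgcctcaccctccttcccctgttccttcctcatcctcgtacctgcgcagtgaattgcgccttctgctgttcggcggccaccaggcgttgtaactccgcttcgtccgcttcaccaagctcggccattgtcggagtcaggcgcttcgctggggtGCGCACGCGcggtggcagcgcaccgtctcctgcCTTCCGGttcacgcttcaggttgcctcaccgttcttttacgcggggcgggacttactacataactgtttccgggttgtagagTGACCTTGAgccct
Uqcr11 promoter: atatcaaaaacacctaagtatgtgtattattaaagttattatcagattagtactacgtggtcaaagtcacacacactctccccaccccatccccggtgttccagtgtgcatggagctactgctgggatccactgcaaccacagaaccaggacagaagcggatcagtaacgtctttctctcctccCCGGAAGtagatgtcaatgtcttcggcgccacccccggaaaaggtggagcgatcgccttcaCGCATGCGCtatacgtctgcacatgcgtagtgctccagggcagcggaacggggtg

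The letters searched on both strands were GCGCANGCG for NRF1, CCGGAAG for ETS factors such as GABP, AANATGGCG for YY1 and TNAAGGTCA for the ERR receptors, factors known to act on nuclear genes of the respiratory chain. Of the 4 genes that rose, Ndufa9 held a YY1 match, at bases 280 to 288 of the window, and the other 3 held no match in these letters. Sdhd held an NRF1, an ETS and an ERR match and Uqcr11 an NRF1 and an ETS match, but this pair was chosen for its matches. Among other genes with differences of like size, Cox7a2, Uqcrfs1, Ndufa4 and Ndufb5 held none, and Atp5l held NRF1 and ETS matches. Of the 64 subunit genes with a window, 28 held none of the 4 motifs, against 22036 of 27025 genes with one. The NRF1 letters were in 17 of the 64 (26.6%), against 7.03% of the 27025. The ETS letters were likewise in 17 and in 9.93% of all genes, those of YY1 in 9 (14.1%) and in 2.76%, and those of ERR in 2 and in 1.43%. NRF1 letters were found in 7 of 15 complex V genes, 5 of 29 complex I genes and 1 of 13 complex IV genes. None of the matches shown overlap one another, and a match describes the letters only.

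Among regulators of mitochondrial gene expression, 1 of 22 measured genes fell and 1 rose, with a median of 0.06. Of all probe sets 1.52% were called lower and 1.00% higher. Ppargc1a, which encodes PGC-1alpha, a coactivator that raises the transcription of respiratory chain genes, ran from 7.97 through 8.48 to 8.64 under TUDCA and from 8.57 through 8.70 to 8.85 under vehicle. It fell by 0.39 on the log2 scale (SE 0.08, adjusted p = 0.0133), was below the vehicle mean of its number range in all 6 TUDCA arrays, and missed the threshold without TUDCA replicate 1 (adjusted p = 0.0582). Without the number range in the fit the difference was −0.29 (adjusted p = 0.172), and in the high range alone it was −0.27 (adjusted p = 0.41). With the replicate number as a block Ppargc1a was not called, either beside the number range (adjusted p = 0.0853 in limma) or without it (adjusted p = 0.159). The direction of Ppargc1a was thus opposite to that of the subunit genes that rose. Hif1a, the oxygen-sensitive subunit of hypoxia-inducible factor, rose by 0.40 ± 0.10 (SE, adjusted p = 0.0421), with no overlap of the groups, and its call ended without any of 10 arrays. The DNA-binding factors Nrf1, Gabpa and Yy1 and the mitochondrial transcription factor Tfam were not called, with differences of 0.08, 0.00, 0.06 and 0.07.

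**Figure D4:**
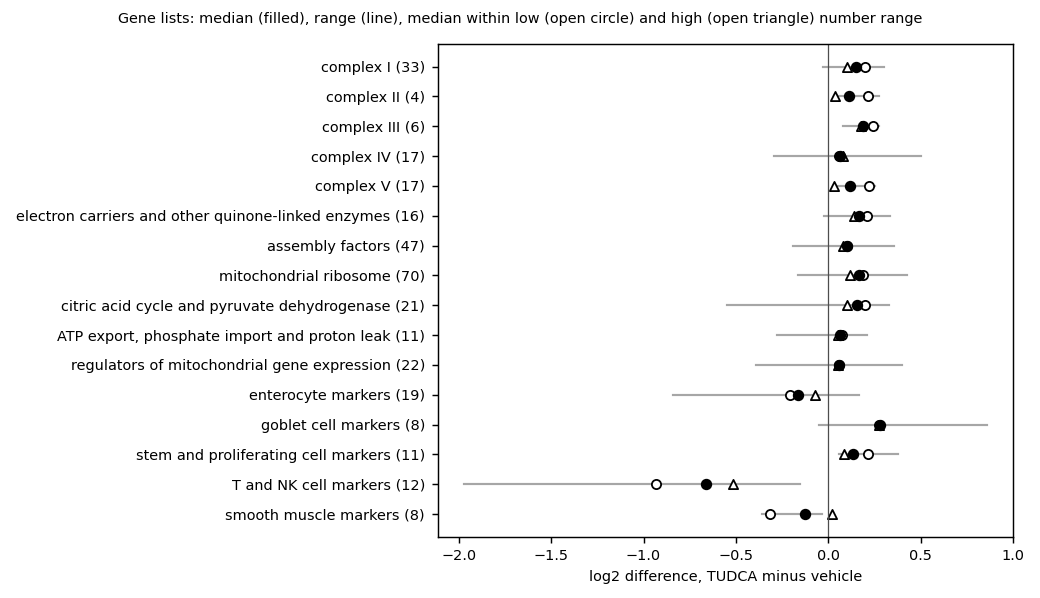
Log2 differences between TUDCA and vehicle (horizontal axis) over the measured genes of each list, the number of which stands in brackets. Filled points are medians, lines run from the lowest to the highest gene, and open circles and triangles are medians within the low and high number range; the 5 complexes and the mitochondrial ribosome have medians from 0.06 to 0.19, and the T and NK cell markers one of −0.66.

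Other genes of mitochondrial energy metabolism were read by list. Of all probe sets, 1.00% were called higher and 1.52% lower, and 53.3% had a difference above 0. Of 16 measured electron carriers and other quinone-linked enzymes 1 rose, Etfb, a subunit of the electron transfer flavoprotein of fatty acid oxidation (0.33 ± 0.08 SE, adjusted p = 0.0336), and the median was 0.16. Without the number range in the fit Etfb missed the threshold (adjusted p = 0.0631). Its partner Etfa differed by 0.20 (adjusted p = 0.0895), with groups that did not overlap. Cyc1, the cytochrome c1 of complex III, differed by 0.22 (adjusted p = 0.23), and Coq7, an enzyme of ubiquinone synthesis, by 0.30 (adjusted p = 0.118). Cytochrome c itself, encoded by Cycs, differed by −0.03. None of 47 assembly factors was called, with a median of 0.10 and 39 above 0. At an unadjusted p under 0.05, limma gave 13 of the assembly factors higher and none lower, against 7.24% and 6.84% of all probe sets. The smallest p was that of the complex I assembly factor Ndufaf6 (0.32 ± 0.08 SE, adjusted p = 0.0565).

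The mitochondrial ribosome makes the subunits encoded in mitochondrial DNA. Of 70 of its genes 65 had a difference above 0, against 53.3% of all probe sets, and the median was 0.17. Among the 70 genes 1 rose, Mrpl54 of the large subunit (0.39 ± 0.09 SE, adjusted p = 0.0395). Only 1 subunit encoded in mitochondrial DNA was measured, COX3 of complex IV, at −0.05 ± 0.05 (SE, adjusted p = 0.745). In the citric acid cycle and pyruvate dehydrogenase list 2 of 21 genes rose, Fh1, encoding fumarase (0.26 ± 0.07 SE, adjusted p = 0.0492), and Pdk1, a kinase that switches pyruvate dehydrogenase off (0.33 ± 0.08 SE, adjusted p = 0.048). The median of that list was 0.15. Of 11 genes of ATP export, phosphate import and proton leak 1 rose, Vdac1, a channel of the outer membrane (0.21 ± 0.05 SE, adjusted p = 0.0458), with 7 above 0 and a median of 0.06. Slc25a4, an ADP/ATP carrier, stood at −0.27 (adjusted p = 0.176). The calls of Etfb, Mrpl54, Fh1, Pdk1 and Vdac1 each ended without any 1 of 10 or 11 arrays, and also without a variance trend (adjusted p from 0.0559 to 0.11). That of Hif1a ended without the trend as well (adjusted p = 0.0642). With arrays centred on the median, Fh1, Pdk1 and Vdac1 also missed the threshold (adjusted p from 0.0519 to 0.0553 in limma). Pdk1 missed it with renewed quantile normalisation (adjusted p = 0.0601) and Mrpl54 without the number range in the fit (adjusted p = 0.0995).

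Marker transcripts of several cell types were read in the same fit, where 1.00% of all probe sets were called higher and 1.52% lower. A difference above 0 was found for 53.3% of all probe sets. Of 19 enterocyte markers 5 fell and none rose, and the log2 of their summed level lay between 15.89 and 16.09 under TUDCA and between 16.09 and 16.21 under vehicle. Of 12 T and NK cell markers 6 fell and none rose, with summed levels from 9.51 to 10.90 and from 10.80 to 11.56. Of 8 goblet cell markers 3 rose and none fell, with summed levels from 14.78 to 15.17 and from 14.30 to 14.94. None of 11 stem and proliferating cell markers was called, but all 11 had differences above 0, with a median of 0.13. Their summed levels lay from 12.19 to 12.89 under TUDCA and from 12.17 to 12.71 under vehicle. RMA gives every probe set a value, so no marker is listed at 0. The part of these cell types in the differences of the subunit genes was not tested.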

How the data were processed

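RNA of small intestine, in 6 samples of TUDCA-treated and 6 of vehicle-treated mice, was hybridised to Affymetrix mouse arrays. Each array has a log2 value for every probe set, as deposited by the authors. The submitters' processing notes name oligo and RMA, which corrects background, makes the arrays' distributions alike by quantile normalisation and summarises probes, so that a shift common to all transcripts would not be seen. Versions, filters and detection calls are not given in the sources used here. Array medians lay from 5.90 to 5.95 and correlations between arrays from 0.984 to 0.993. The number of arrays limits the precision: the standard error of a subunit gene's difference had a median of 0.09.

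A linear model with treatment and number range as terms was run on all 23991 probe sets in limma (version 3.58.1, R 4.3.3), followed by eBayes with a variance trend. Tests were two-sided, with Benjamini-Hochberg adjustment over all probe sets and a threshold of 0.05. Complexes were assigned by symbol. The fit was tested on simulated data with errors drawn independently for each probe set and no effect of number range. That simulation does not cover genes that vary together or an array that stands apart. Nothing in the labels but the sample numbers says that the arrays come from separate mice, and p-values measure the spread between these samples.

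Earlier results of these data were known when the members, the gene lists and the naming rule were chosen. Named were the called subunit genes, the 4 with the smallest p per complex, the tissue isoforms and their partners, the 3 with the highest and the 3 with the lowest mean, up to 4 genes with the smallest p of each pathway list, and 8 fixed regulators and carriers. Further names were chosen after their values were seen. Of 262 list entries 31 were not matched to a probe set and are not analysed here. For a gene with several probe sets in a list, that with the highest mean was taken. Replicate numbers were not taken to pair the samples. Alternatives were the fit without the number range, replicate blocks, each range alone, removal of dim probe sets, renewed quantile normalisation, median centring, eBayes without trend or robust, a threshold of 0.1, array weights, a single probe set kept for each gene and omission of each array.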

Additional observations from a re-analysis of the deposited data

Results flagged for a closer look

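In 63 named genes and 6 summary values, each group of 6 arrays was searched for a highest or lowest array standing far from the rest, which chance gives in about 1 of 20 groups. Of 138 groups 10 held such an array, 5 of them TUDCA replicate 3. That array was the lowest of its group for Atp5pb (10.44, the next at 10.77), Cox6a2 (5.16, next 5.44), Cyc1 (8.91, next 9.32), Coq7 (6.92, next 7.24) and Gabpa (8.46, next 8.69). Among the vehicle arrays, replicate 2 was the highest for Ndufv1 (9.27, next 9.06), replicate 1 the highest for Atp5b (12.63, next 12.52) and replicate 6 the lowest for Idh2 (8.75, next 9.01). TUDCA replicate 5 was the lowest for Mrpl57 (6.43, next 6.76) and TUDCA replicate 4 the lowest for Vdac3 (9.37, next 9.63).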

How the results depend on the processing

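The number of subunit genes called higher was 4 in the fit reported and 12 with array weights, 8 with dim probe sets left out, 11 at a threshold of 0.1, 2 without a variance trend, 2 in the low number range alone and 0 in the high range alone, where limma gave 9 calls over all probe sets. It ran from 1 to 12 with 1 array left out. No setting called a subunit gene lower. The replicate number used as a block gave 4 calls without and 2 with the number range, the latter being Cox7a1 and Ndufc2. Deviations of same-numbered arrays correlated from −0.06 to 0.26, and 4 of 6 TUDCA arrays correlated best with their own number. These values do not settle whether the numbers pair the samples. The labels do not say so, and the fit reported is unpaired. With the block and the number range together, Ndufv1, Ndufa9, Etfb, Fh1, Pdk1, Vdac1 and Ppargc1a were not called, with adjusted p from 0.0853 to 0.259 in limma. With the block alone, Ndufc2, Etfb, Mrpl54, Pdk1, Vdac1 and Ppargc1a were not called, with adjusted p from 0.0879 to 0.159. The mean correlation between subunit genes, recomputed with each array left out after the data were seen, fell to 0.08 without TUDCA replicate 3. The median difference of complex II was 0.214 in the low range alone and 0.0358 in the high range alone, and that of complex V 0.223 and 0.0329. Those of complexes I, III and IV were 0.197 and 0.1, 0.242 and 0.178, and 0.0562 and 0.081. The median of the whole set was 0.194 in the low range alone and 0.081 in the high range alone. No named gene that was called, here or under an alternative, changed direction.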

Other observations

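Kinases of the pyruvate dehydrogenase complex had differences of both signs, an observation made after the values were seen. Whether the kinases differ from one another was not tested. Pdk1 rose, whereas Pdk2 stood at −0.44 ± 0.12 (SE, adjusted p = 0.0631 in limma), with values from 7.95 to 8.71 under TUDCA and from 8.53 to 8.96 under vehicle. Pdk4, which is known to respond to fasting and fatty acids, stood at −0.55 ± 0.29 (SE, adjusted p = 0.415) and spread from 6.56 to 7.98 and from 6.65 to 8.19. Pdk3 differed by 0.03.

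Of the remaining marker lists, macrophages and neutrophils had 1 of 10 genes higher, Ly6g, with a median of −0.16 over the list. None of 5 Paneth cell genes and none of 14 reticular and other stromal genes was called in limma. At an unadjusted p under 0.05 limma gave 1 Paneth cell gene lower and 1 stromal gene higher. Of all probe sets, 6.84% were lower and 7.24% higher at that level.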
